A study of Mus musculus with 43 samples.

Results

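Acute phase and complement genes were followed across mouse embryonic fibroblasts (MEF) through 8 named genes: Lcn2, Saa3, Ptx3, C3, C4b, C1ra, Cfb and Serping1. They were looked up by gene symbol, and all 8 were found among 24327 genes in the FPKM table and 25080 genes in the TPM table. The genes were chosen on measured values, because Lcn2 and Saa3 rise with drugs in these samples. Their drug levels are therefore a description without any test, and tests on the 8 genes come only from the siRNA and CRISPRa systems.

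The study measured poly-A RNA in 43 libraries of a MEF cell line, in 13 groups that fall into 3 systems. In the siRNA system, cells with Son siRNA (a knockdown) or control siRNA were given tunicamycin or the solvent DMSO, with 4 libraries in each of 4 groups. In the CRISPRa system a guide RNA (sgRNA) directs a transcriptional activator to a gene. Cells with Son sgRNA, whose genotype label reads Son overexpression, or control sgRNA were given tunicamycin or DMSO, with 3 libraries in each of 4 groups. In the drug system, wild-type cells received nintedanib at 3 µM, ponatinib at 1 µM, proflavine hemisulfate at 3 µM, pyrvinium pamoate at 1 µM or DMSO for 24 h, with 3 libraries in each of 5 groups. Son encodes a splicing cofactor of nuclear speckles, and tunicamycin causes endoplasmic reticulum stress by blocking the N-glycosylation of proteins. Nintedanib and ponatinib inhibit tyrosine kinases, proflavine intercalates into DNA and pyrvinium is an anthelmintic dye. How much tunicamycin was given, and for how long, is not stated in the labels. The labels do not say whether the libraries of a group came from separate cultures, so every p-value measures only the spread between these libraries.

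Acute phase proteins are secreted in response to infection, injury or inflammatory cytokines, above all by the liver, and fibroblasts and other stromal cells make some of them locally. Complement is a cascade of plasma proteases that meets at the component C3 and marks microbes and debris for removal. Interleukin 6, interleukin 1 and interferons, acting through C/EBP, NF-kappaB and STAT factors, are known inducers of these genes. Among the 8 genes, Lcn2 encodes lipocalin-2, which binds bacterial siderophores. Saa3 encodes a serum amyloid A protein that in mice is made mostly outside the liver, and Ptx3 encodes the long pentraxin, a soluble pattern recognition protein. C1ra encodes the C1r protease that starts the classical pathway, and C4b encodes the component C4 that follows it. Cfb encodes factor B, the protease of the alternative pathway convertase, and Serping1 encodes the C1 inhibitor.

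RefSeq promoters (GRCm38.p6) were matched for 5 of the 8 genes, and those of Lcn2, Saa3, Ptx3 and C3, which the results turn on, are shown on the strand of the gene, from 250 bases before the start site to 10 bases after it. The Lcn2 window is chr2:32387730-32387989 (minus strand), the Saa3 window chr7:46715667-46715926 (minus strand), the Ptx3 window chr3:66219637-66219896 (plus strand) and the C3 window chr17:57228127-57228386 (minus strand). Capitals mark matches to the motifs searched on both strands.
Lcn2: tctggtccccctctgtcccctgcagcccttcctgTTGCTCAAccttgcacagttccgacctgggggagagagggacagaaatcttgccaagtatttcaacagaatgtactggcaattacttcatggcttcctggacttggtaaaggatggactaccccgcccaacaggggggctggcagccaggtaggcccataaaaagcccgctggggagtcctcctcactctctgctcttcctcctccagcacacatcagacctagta
Saa3: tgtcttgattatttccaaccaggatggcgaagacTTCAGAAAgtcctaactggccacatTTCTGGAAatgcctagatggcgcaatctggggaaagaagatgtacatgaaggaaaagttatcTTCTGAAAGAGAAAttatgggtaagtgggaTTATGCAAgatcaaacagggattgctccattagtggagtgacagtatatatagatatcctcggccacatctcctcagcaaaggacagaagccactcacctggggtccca
Ptx3: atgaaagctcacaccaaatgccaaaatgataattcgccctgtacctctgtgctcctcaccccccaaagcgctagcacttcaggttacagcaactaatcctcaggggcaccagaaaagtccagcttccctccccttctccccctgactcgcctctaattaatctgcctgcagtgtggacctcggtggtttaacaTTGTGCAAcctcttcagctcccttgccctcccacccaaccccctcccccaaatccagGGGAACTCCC
C3: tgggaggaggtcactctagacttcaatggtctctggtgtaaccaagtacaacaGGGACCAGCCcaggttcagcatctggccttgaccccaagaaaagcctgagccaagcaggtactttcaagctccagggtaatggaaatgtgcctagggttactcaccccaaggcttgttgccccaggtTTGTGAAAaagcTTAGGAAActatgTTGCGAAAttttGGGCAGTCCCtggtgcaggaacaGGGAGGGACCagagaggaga
The C/EBP letters TTNNGNAA, which 37.7% of 32851 promoters of the same 260 bases hold, occurred once in Lcn2 (bases -216 to -209, minus strand) and at 4 places in Saa3 (starting at bases -216, -191, -129 and -99). They occurred once in Ptx3 (starting at base -57) and at 3 places in C3 (starting at bases -70, -58 and -45). The NF-kappaB letters (GGGA, 4 bases of any kind, then CC), held by 18.2% of promoters, occurred at bases 1 to 10 of Ptx3 and at 3 places in C3 (starting at bases -197, -33 and -10). The interferon response letters (GAAA, 2 bases of any kind, then GAAA), held by 3.07% of promoters, occurred in Saa3 at bases -125 to -116, where they overlap the C/EBP match starting at base -129. None of these 4 windows held the STAT letters TTCNNNGAA (7.33% of promoters), the AP-1 letters TGANTCA (7.03%), the amino acid response letters TGATGNAA (3.59%) or the endoplasmic reticulum stress element, CCAAT and CCACG with 9 bases of any kind between them (0.116%). A match is a run of letters and not a measured site.

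On GRCm38 (GENCODE M21), the 8 genes are all protein-coding and lie on 5 chromosomes. Lcn2 (chr2:32384633-32388252) and Serping1 (chr2:84765387-84775444) lie on the minus strand. Saa3 lies at chr7:46711998-46715700 (minus strand), Ptx3 at chr3:66219910-66225805 (plus strand) and C1ra at chr6:124512405-124523443 (plus strand). C4b (chr17:34728380-34743882), Cfb (chr17:34856374-34862518) and C3 (chr17:57203970-57228136) share a chromosome and the minus strand.

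Before the values, some facts of the libraries matter. In the siRNA system, Son stood at 15.1, 15.8, 16.8 and 14.1 FPKM in Son siRNA cells given tunicamycin, against 36.5, 35.0, 37.0 and 35.5 FPKM in control siRNA cells given tunicamycin. It stood at 20.8, 21.6, 23.1 and 21.5 FPKM in Son siRNA cells in DMSO, against 42.6, 43.1, 44.9 and 43.3 FPKM in control siRNA cells in DMSO, and every Son siRNA library was below every control siRNA library (log2 fold changes -1.17 in tunicamycin and -0.97 in DMSO). The libraries labelled Son sgRNA showed no rise of Son, although their genotype label reads Son overexpression. In tunicamycin Son stood at 45.3, 35.0 and 42.4 FPKM in them, against 42.4, 41.2 and 43.7 FPKM in the libraries labelled control sgRNA. In DMSO it stood at 51.9, 44.6 and 29.8 FPKM, against 46.4, 47.5 and 48.3 FPKM in the libraries labelled control sgRNA. Library C of the Son sgRNA DMSO group stands apart from the other CRISPRa libraries, with a summed level of 499908 FPKM, against 381968 to 425295 FPKM, and a median correlation with its own group of 0.980, against 0.986 to 0.996. Library B of the Son sgRNA tunicamycin group had the lowest summed level, 381968 FPKM, but lay close to the next library at 397344 FPKM. Its median correlation with its own group was 0.987, within the 0.986 to 0.996 of the other libraries. Both libraries were doubted after the data were seen, and values with all 12 libraries are followed by values without both. The summed level per library was 393764 to 424082 FPKM in the siRNA system and 952123 to 989105 TPM in the drug system, and the read depth is unknown.

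Of the listed markers of other cells, Alb, Ttr, Fga and Tat of hepatocytes, S100a9, Ngp and Mpo of neutrophils and Ptprc, Adgre1 and C1qa of macrophages were under 0.1 in every library of every system. The other markers of these 3 lists were not under 0.1 throughout. Of 7 macrophage markers, 2 (siRNA), 2 (CRISPRa) and 3 (drug) had a mean of at least 1, so absence of such cells is not shown. Summed over 6 hepatocyte genes the level reached at most 0.113 FPKM (siRNA), 0.119 FPKM (CRISPRa) and 0.517 TPM (drug), and over 7 neutrophil genes at most 0.189 FPKM, 0.310 FPKM and 0.729 TPM. Of 9 fibroblast markers, Lum was under 0.1 in every library and Thy1 in every library of the siRNA and CRISPRa systems. Their summed level moved with the drugs, at 1475 to 1596 TPM with nintedanib, 2074 to 2209 with ponatinib, 842 to 909 with proflavine and 586 to 680 with pyrvinium, against 2838 to 2951 TPM in DMSO. The 7 macrophage markers, of which Cd14 is also in the acute phase list, summed to 25.2 to 27.5 TPM with nintedanib, 21.3 to 24.6 with ponatinib, 18.6 to 19.6 with proflavine and 15.7 to 19.9 with pyrvinium, against 12.5 to 14.1 TPM in DMSO. Proflavine and nintedanib libraries also had more of 3 other marker lists. The 6 adipocyte markers, of which Plin1, Cfd and Lep were under 0.1 TPM in every drug library, summed to 65.2 to 72.5 TPM with proflavine and 35.0 to 42.1 with nintedanib, against 21.4 to 29.3 TPM in DMSO. The 5 epithelial markers summed to 42.7 to 45.2 TPM with proflavine and 19.7 to 31.7 with nintedanib, against 14.7 to 16.3 TPM in DMSO. The 4 endothelial markers, of which Cdh5 and Tie1 were under 0.1 TPM throughout, summed to 1.99 to 2.24 TPM with proflavine and 0.661 to 0.943 with nintedanib, against 0.369 to 0.408 TPM in DMSO. With ponatinib and pyrvinium the adipocyte and epithelial sums were below DMSO, at 9.02 to 16.8 TPM and 6.55 to 10.5 TPM over both drugs. The part of these marker lists in the results was not tested. In bulk samples, fewer cells of a type and less RNA per cell cannot be told apart.

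The 4 drugs left different members of the set high. Nintedanib cells had the highest Saa3, C3 and C1ra, pyrvinium cells the highest Lcn2 and Ptx3 and the lowest C3, and proflavine cells high Ptx3 with low C1ra. All 4 drugs are set against the same 3 DMSO libraries. Of 12132 genes tested, 34.3% were called higher and 22.1% lower with nintedanib, 41.1% and 21.4% with ponatinib, 27.8% and 42.4% with proflavine, and 36.6% and 40.8% with pyrvinium. No call is drawn from these contrasts for the 8 genes. The share of calls that were higher was 60.8% with nintedanib, against 47.5% under median-ratio scaling and 41.1% under quantile normalization. It was 65.8% with ponatinib, against 49.5% and 48.4%, and 39.6% with proflavine, against 49.6% under median-ratio scaling. Quantile normalization moved the median of all genes by -0.106 on the log2 scale with nintedanib and by -0.112 with ponatinib, for which median-ratio scaling moved it by -0.101. No gene of the pathway lists that was called in a drug contrast changed sign under either scaling.

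Lcn2 stood at 95.3, 108 and 79.9 TPM with pyrvinium, 5.59, 6.26 and 6.46 TPM with nintedanib, 2.53, 3.67 and 3.61 TPM with ponatinib and 0.748, 1.11 and 1.05 TPM with proflavine, against 0.949, 0.236 and 0.131 TPM in DMSO. All pyrvinium, nintedanib and ponatinib libraries were above all DMSO libraries, and the proflavine libraries overlapped them. On the log2(TPM + 1) scale the differences were 6.08 (pyrvinium), 2.35 (nintedanib), 1.60 (ponatinib) and 0.49 (proflavine), each with an SE of 0.176. The ratio of means was 215 for pyrvinium. The DMSO level was low and uneven, and with a pseudocount of 0.1 in place of 1 the same differences were 7.76, 3.84, 2.94 and 1.29.

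Saa3 stood at 22.3, 22.0 and 13.98 TPM with nintedanib, 3.03, 3.85 and 2.92 TPM with pyrvinium, 1.08, 0.471 and 1.81 TPM with ponatinib and 0.384, 1.38 and 0.501 TPM with proflavine, against 0.199, 0.296 and 0.739 TPM in DMSO. Nintedanib libraries were the highest and pyrvinium libraries next, both above all DMSO libraries, while ponatinib and proflavine libraries overlapped DMSO. The log2 differences were 3.85 (nintedanib), 1.61 (pyrvinium), 0.56 (ponatinib) and 0.29 (proflavine), each with an SE of 0.251. With a pseudocount of 0.1 they were 5.37, 2.85, 1.23 and 0.71. Lcn2, Saa3 and Cfb passed the filter, a mean of at least 1 TPM over the 15 libraries, only through the drug groups in which they are high, so they had to differ.

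Ptx3 took another order. It stood at 181, 172 and 195 TPM with pyrvinium, 99.4, 106 and 102 TPM with proflavine, 12.2, 12.9 and 12.9 TPM with ponatinib and 14.9, 11.5 and 10.7 TPM with nintedanib, against 21.6, 19.0 and 19.2 TPM in DMSO. Pyrvinium and proflavine libraries were above every DMSO library, and ponatinib and nintedanib libraries below every one. The log2 differences were 3.13, 2.30, -0.62 and -0.66 in that order, with an SE of 0.0888.

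C3 was the most abundant of the set in DMSO per length of transcript, and stood at 323, 384 and 365 TPM with nintedanib, 107, 102 and 117 TPM with ponatinib, 60.3, 59.9 and 59.4 TPM with proflavine and 20.8, 17.8 and 13.7 TPM with pyrvinium, against 59.1, 51.7 and 64.2 TPM in DMSO. Nintedanib and ponatinib libraries lay above the DMSO libraries, proflavine libraries overlapped them and pyrvinium libraries lay below. The log2 differences were 2.60, 0.89, 0.04 and -1.70, with an SE of 0.114. In pyrvinium cells C3 and Ptx3 therefore stood on opposite sides of DMSO.

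**Figure D1:**
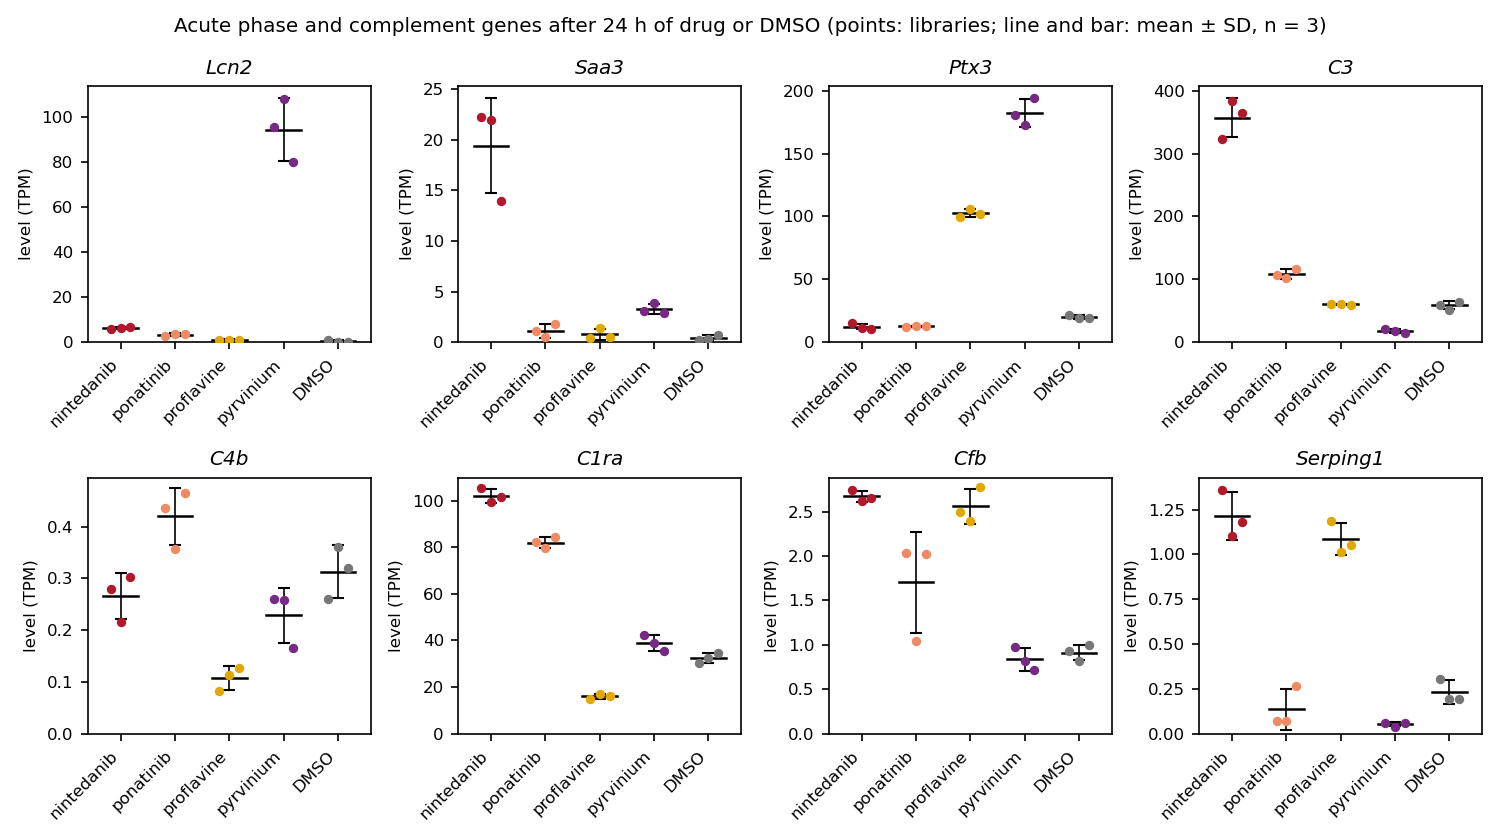
Level in TPM of each of the 8 genes in the 4 drug groups and DMSO after 24 h, with 1 point per library and the mean ± SD of 3 libraries as line and bar, on linear axes from 0 that differ between genes. Lcn2 is highest with pyrvinium (94.3 ± 13.9 TPM), Saa3 and C3 with nintedanib (19.4 ± 4.72 and 357 ± 31.5 TPM) and Ptx3 with pyrvinium (183 ± 11.2 TPM).

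C1ra, at the head of the classical pathway, averaged 102 ± 3.08 TPM with nintedanib, 82.1 ± 2.37 TPM with ponatinib, 38.8 ± 3.36 TPM with pyrvinium and 16.1 ± 1.08 TPM with proflavine, against 32.6 ± 2.18 TPM in DMSO (SD, n = 3 each). No 2 of these 5 groups overlapped. Its near copy C1rb was at most 0.195 TPM, or 0.230% of the C1ra and C1rb sum. In FPKM it held 18.0 to 21.2% of that sum in the siRNA system and 15.4 to 21.3% in the CRISPRa system. The 2 transcripts are 97.9% identical over 2431 aligned bases. How reads were divided between the 2 genes is therefore uncertain in the drug system too, and the difference between the systems was not tested. C4b stayed at or under 0.465 TPM in all 15 libraries, under the filter, and its near copy C4a held 52.3 to 87.1% of the C4a and C4b sum.

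Cfb, the alternative pathway protease, stood at 2.75, 2.62 and 2.65 TPM with nintedanib, 2.50, 2.40 and 2.78 TPM with proflavine, 2.04, 1.04 and 2.03 TPM with ponatinib and 0.972, 0.820 and 0.712 TPM with pyrvinium, against 0.927, 0.817 and 0.993 TPM in DMSO. Pyrvinium libraries overlapped DMSO and the other 3 drugs lay above it. Serping1 stood at 1.36, 1.104 and 1.18 TPM with nintedanib and 1.19, 1.02 and 1.05 TPM with proflavine, but at 0.0677 to 0.266 TPM with ponatinib and 0.0388 to 0.0617 TPM with pyrvinium, against 0.307, 0.195 and 0.190 TPM in DMSO. It did not pass the filter on low values. Cfb and Serping1 shared the same first 2 drugs, nintedanib and proflavine, in their order of levels, and in both genes those 2 groups overlapped each other.

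The rest of the acute phase list, which holds 10 other genes with a mean of at least 1 TPM, was tested. Counts of this and the following lists are to be read beside the shares of all genes called with each drug, given above. With nintedanib 8 of 10 rose and none fell. Lbp, which presents bacterial lipopolysaccharide, averaged 22.1 ± 1.53 TPM with nintedanib and 3.29 ± 0.702 TPM in DMSO, a log2 fold change of 2.44 (SE 0.141, adjusted p = 1.75e-09). The metallothionein Mt2 averaged 895 ± 65.1 TPM with nintedanib and 245 ± 19.9 TPM in DMSO (1.87), and Il1rn, the interleukin 1 receptor antagonist, 87.5 ± 6.44 TPM and 24.8 ± 2.32 TPM (1.78). The median over the 10 genes was 0.98, against 0.04 over all genes tested.

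With pyrvinium, the drug with the highest Lcn2, 9 of the same 10 genes fell and 1 rose, with a median of -0.97 against -0.03 over all genes. Serpina3g, a serine protease inhibitor, averaged 0.124 ± 0.0195 TPM with pyrvinium and 7.39 ± 0.670 TPM in DMSO, a log2 fold change of -2.90 (SE 0.0829, adjusted p = 1.35e-13). Mt1 averaged 209 ± 12.5 TPM with pyrvinium and 649 ± 19.3 TPM in DMSO (-1.63), and Cp, the copper carrier ceruloplasmin, 2.64 ± 0.291 TPM and 7.20 ± 0.744 TPM (-1.17). The gene that rose was the zinc transporter Slc39a14 (0.36).

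Ponatinib and proflavine split the list. With ponatinib 3 of 10 rose, among them Lbp (12.8 ± 1.31 TPM, 1.69), and 5 fell, among them Serpina3g, at 3.44 ± 0.263 TPM with ponatinib and 7.39 ± 0.670 TPM in DMSO (-0.92, adjusted p = 2e-07). With proflavine 4 rose, including Il1rn (1.12), and 3 fell, including Lbp at 0.321 ± 0.0504 TPM (-1.69).

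Within the classical and lectin pathway, 3 of 4 other genes rose with nintedanib and 3 of 4 with ponatinib, and none fell with either. C1s1, the protease that C1r activates, averaged 125 ± 6.16 TPM with nintedanib and 7.95 ± 0.370 TPM in DMSO, a log2 fold change of 3.81 (SE 0.0772, adjusted p = 4.36e-14), and 38.9 ± 0.507 TPM with ponatinib (2.16, adjusted p = 1.27e-11). C2, which pairs with C4 in the convertase, averaged 70.7 ± 5.18 TPM with nintedanib and 87.6 ± 1.52 TPM with ponatinib, against 23.9 ± 0.227 TPM in DMSO (1.52 and 1.83). C1ra lay above DMSO with the same 2 drugs. With proflavine and with pyrvinium 2 of the 4 genes rose and 2 fell. C1s1 fell to 2.55 ± 0.341 TPM with proflavine and to 2.54 ± 0.338 TPM with pyrvinium (-1.34 for each), as did the scavenger receptor Colec12 (-1.05 and -1.5), while C2 (0.29 and 1.24) and the lectin pathway protease Masp1 (0.89 and 1.08) rose.

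Of the alternative and terminal pathway only 2 other genes reached a mean of 1 TPM. C8g, a chain of the C8 component, rose with nintedanib (0.52) and ponatinib (1.23, adjusted p = 1.4e-05) and fell with proflavine (-0.62), and Cfp, properdin, fell with pyrvinium (-1.04, adjusted p = 4.1e-06). Of 7 regulators and receptors, 4 rose and 1 fell with nintedanib, 4 rose and 2 fell with ponatinib, 3 rose and 4 fell with proflavine, and 4 rose and 3 fell with pyrvinium. Clu, clusterin, rose with nintedanib (1.62), ponatinib (0.99) and proflavine (1.60) and fell with pyrvinium (-0.82). Cd59a, an inhibitor of the membrane attack complex, rose with nintedanib (0.79), ponatinib (1.26) and pyrvinium (1.5).

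**Figure D2:**
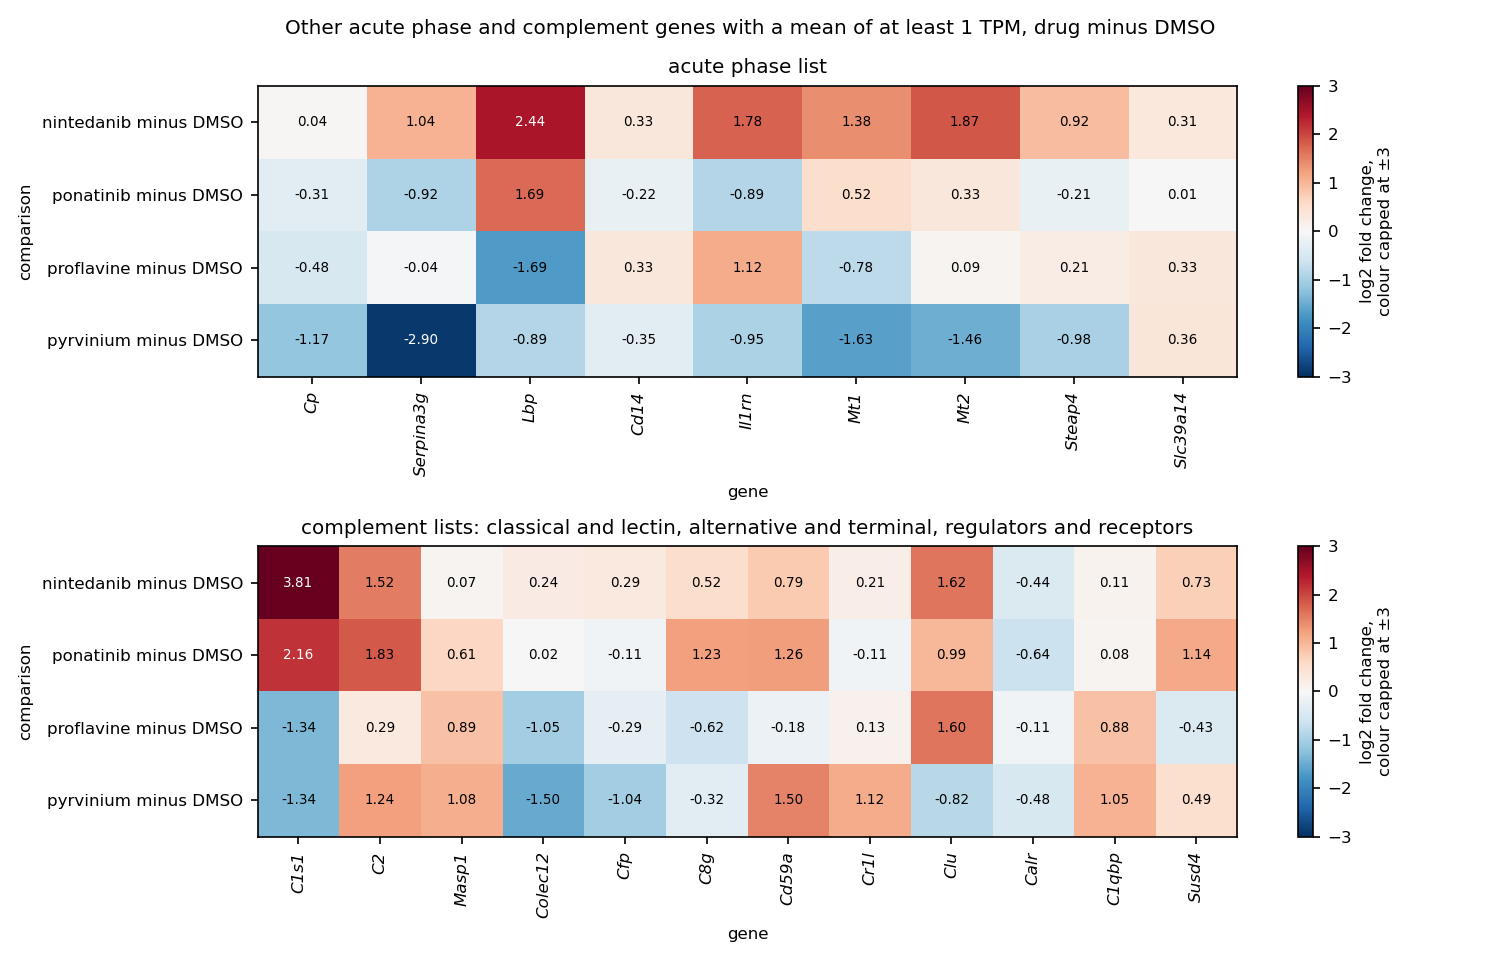
The log2 fold change on the log2(TPM + 1) scale of 9 of the 10 other acute phase genes (top) and 12 of the 13 other complement genes (bottom) in each drug against DMSO, red for higher with the drug and blue for lower, with the value printed in each cell. The nintedanib row is mostly red (Lbp 2.44, C1s1 3.81), and the acute phase cells shown in the pyrvinium row are blue in all but Slc39a14.

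The list of inducing cytokines, receptors and transcription factors held 31 genes with a mean of at least 1 TPM. With nintedanib 21 rose and 4 fell, with ponatinib 3 rose and 15 fell, with proflavine 13 rose and 8 fell, and with pyrvinium 10 rose and 19 fell. Cebpd, a C/EBP factor of the acute phase response, averaged 20.5 ± 0.524 TPM with nintedanib and 8.17 ± 0.324 TPM with proflavine, against 2.82 ± 0.266 TPM in DMSO (2.49 and 1.27). Il6 averaged 6.42 ± 0.822 TPM with proflavine and 5.65 ± 0.625 TPM with pyrvinium, against 0.294 ± 0.0676 TPM in DMSO (2.51 and 2.36, adjusted p = 4.35e-11 and 3.31e-11). Those are the 2 drugs with the highest Ptx3. Il6 passed the filter of at least 1 TPM only through drug groups in which it is high, so it had to differ. These p-values are therefore no support, and a link between Il6 and Ptx3 was not tested. Irf7, an interferon response factor, averaged 264 ± 22.6 TPM with proflavine and 341 ± 32.3 TPM with pyrvinium, against 90.6 ± 8.91 TPM in DMSO (1.53 and 1.90). Socs3, the feedback inhibitor of STAT signalling, fell with ponatinib (-0.77) and pyrvinium (-1.48).

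Among 9 partners of the members, 5 rose and 2 fell with nintedanib, 3 rose and 2 fell with ponatinib, 3 rose and 4 fell with proflavine, and 2 rose and 6 fell with pyrvinium. Tlr2 and Tlr4, receptors for microbial products that serum amyloid A can also engage, rose with nintedanib (1.02 for each). Mmp9, the protease that lipocalin-2 binds in humans, rose with nintedanib (0.81) and ponatinib (1.04) and fell with proflavine (-0.93) and pyrvinium (-1.40). Tnfaip6, which works with pentraxin 3 in the hyaluronan matrix, averaged 6.11 ± 0.411 TPM with pyrvinium and 6.59 ± 0.167 TPM with proflavine, against 13.9 ± 0.862 TPM in DMSO, and fell with both (-1.06 and -0.97). The plasminogen activators Plau and Plat fell with pyrvinium (-2.12 and -2.42).

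In the siRNA system Lcn2 and Ptx3 rose with tunicamycin under both siRNAs, and no complement member was called higher. Saa3, a gene at a low level, was higher in tunicamycin too. With Son siRNA C1ra fell with tunicamycin, C3 was called lower in a call that did not hold under several alternatives, and C1ra was lower with Son siRNA than with control siRNA in both treatments. Of the 8 genes, 5 had a mean of at least 1 FPKM here. C4b at 0.0958 to 0.267 FPKM, Cfb at 0.319 to 0.723 FPKM and Serping1 at 0.0981 to 0.692 FPKM did not, and were not tested. Serping1 averaged 0.347 ± 0.0412 FPKM in tunicamycin and 0.516 ± 0.137 FPKM in DMSO with Son siRNA, and 0.212 ± 0.152 FPKM in tunicamycin and 0.329 ± 0.140 FPKM in DMSO with control siRNA (SD, n = 4 each), in groups that overlapped. Saa3 passed the filter only through the tunicamycin groups, in which it is high, so counts over the 5 genes are no support for a direction.

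Lcn2 stood at 3.62, 2.81, 3.51 and 2.72 FPKM in Son siRNA cells in tunicamycin, against 2.12, 1.55, 1.91 and 1.39 FPKM in Son siRNA cells in DMSO. It stood at 3.87, 2.79, 4.28 and 8.42 FPKM in control siRNA cells in tunicamycin, against 0.731, 0.966, 1.19 and 1.07 FPKM in control siRNA cells in DMSO. Tunicamycin libraries were above DMSO libraries throughout, and library D of the control siRNA tunicamycin group was the highest. The log2 fold change was 0.60 with Son siRNA (SE 0.190, adjusted p = 0.0099) and 1.47 with control siRNA (SE 0.190, adjusted p = 2.75e-06). Without library D of the control siRNA tunicamycin group the second value was 1.22 (adjusted p = 1.98e-07).

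Saa3 stood at 1.91, 1.08, 1.41 and 1.67 FPKM in Son siRNA cells in tunicamycin, against 0.589, 0.625, 0.821 and 0.810 FPKM in Son siRNA cells in DMSO. It stood at 1.86, 1.29, 1.54 and 2.43 FPKM in control siRNA cells in tunicamycin, against 0.287, 0.597, 0.289 and 0.518 FPKM in control siRNA cells in DMSO. Tunicamycin libraries were again above their DMSO libraries, with log2 differences of 0.55 with Son siRNA and 0.96 with control siRNA, SE 0.121 each. Because the filter kept Saa3 only through its tunicamycin level, the test without any filter is given for it, which called both differences (adjusted p = 0.00232 and 1.77e-05). Its acute phase relatives Saa1 and Saa2 were listed at 0 in all 16 libraries.

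Ptx3 stood at 16.9, 12.8, 13.2 and 16.4 FPKM in Son siRNA cells in tunicamycin, against 7.47, 6.64, 6.38 and 7.23 FPKM in Son siRNA cells in DMSO. It stood at 16.4, 17.6, 13.5 and 16.8 FPKM in control siRNA cells in tunicamycin, against 7.12, 7.596, 7.31 and 7.80 FPKM in control siRNA cells in DMSO. The groups did not overlap, and the log2 fold changes were 0.99 with Son siRNA (adjusted p = 3.37e-08) and 1.01 with control siRNA (adjusted p = 1.89e-08), SE 0.0851 each.

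C3 did not follow them. It averaged 48.9 ± 3.97 FPKM in tunicamycin and 56.2 ± 4.69 FPKM in DMSO with Son siRNA (SD, n = 4 each), a log2 fold change of -0.20 (SE 0.0728, adjusted p = 0.0237) in groups that overlapped. That call was lost under median-ratio scaling (-0.15, adjusted p = 0.0634), without the filter on low values (adjusted p = 0.054), without library D of the Son siRNA tunicamycin group (-0.16, adjusted p = 0.0842) and without library C of the Son siRNA DMSO group (-0.15, adjusted p = 0.0932). With control siRNA it averaged 51.8 ± 2.14 FPKM in tunicamycin and 51.2 ± 5.64 FPKM in DMSO (0.02, adjusted p = 0.778). C1ra fell with tunicamycin in Son siRNA cells (-0.25, adjusted p = 0.00535), and in control siRNA cells its log2 difference was -0.12 (adjusted p = 0.154), called without library A of the control siRNA DMSO group (-0.18, adjusted p = 0.0344). The near copy C1rb was not called with tunicamycin under Son siRNA (-0.10, adjusted p = 0.206) or control siRNA (-0.07, adjusted p = 0.363).

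Of the 5 members tested, 3 were called higher and 2 lower with tunicamycin in Son siRNA cells, against 26.1% higher and 41.1% lower of 10883 genes. In control siRNA cells 3 were called higher and 0 lower by limma, against 26.6% and 42.4% of all genes, and 3 of the 5 had an unadjusted p under 0.05. In control siRNA cells 38.5% of all calls were higher, against 48.7% under median-ratio scaling. The tunicamycin response itself was compared between the siRNAs. The difference, Son siRNA minus control siRNA, was -0.87 for Lcn2 (SE 0.268, adjusted p = 0.0964), -0.41 for Saa3 (0.206), -0.22 for C3 (0.253), -0.13 for C1ra (0.498) and -0.02 for Ptx3 (0.957), with the adjusted p in brackets. No member was called by limma, 3 of 5 had an unadjusted p under 0.05, and 0.827% of all genes were called higher and 0.855% lower. Of those calls 49.2% were higher, against 38.1% under median-ratio scaling. The Lcn2 difference was called without library B of the control siRNA tunicamycin group (-1.05, adjusted p = 0.0407), and was -0.61 without library D (adjusted p = 0.0657).

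C1ra stood at 11.1, 10.4, 11.5 and 9.67 FPKM in Son siRNA cells in tunicamycin, against 16.1, 14.4, 16.4 and 13.9 FPKM in control siRNA cells in tunicamycin. In DMSO it stood at 12.04, 13.0, 13.6 and 12.9 FPKM in Son siRNA cells, against 14.5, 18.9, 15.5 and 17.7 FPKM in control siRNA cells. All Son siRNA libraries were below all control siRNA libraries of the same treatment, with log2 fold changes of -0.48 (SE 0.0721, adjusted p = 4.55e-05) and -0.34 (SE 0.0721, adjusted p = 0.00155). The near copy C1rb also fell (-0.37 and -0.34). Its transcript is 97.9% identical to that of C1ra over 2431 aligned bases, and it held 18.0 to 21.2% of their sum, so how reads were divided between the 2 genes is uncertain.

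With a pseudocount of 1, C1ra was the single member called between the siRNAs. In tunicamycin 0 of 5 were called higher and 1 lower, against 30.6% and 20.4% of all genes. In DMSO 0 were called higher and 1 lower, against 20.0% and 16.1%, with 3 of 5 at an unadjusted p under 0.05. With a pseudocount of 0.1 the number called in DMSO was 3. Saa3 in DMSO had a log2 difference of 0.27 (adjusted p = 0.0907) in groups that overlapped. Lcn2 in DMSO was higher in every Son siRNA library than in any control siRNA library, with a log2 difference of 0.46 (adjusted p = 0.0672). That call was made without library B (adjusted p = 0.0353) or D (0.00388) of the control siRNA tunicamycin group, which moved the shared spread and not the difference. In tunicamycin the Lcn2 groups overlapped (-0.41, adjusted p = 0.0813), and the difference was called without library B of the control siRNA tunicamycin group (-0.59, adjusted p = 0.0115).

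Other genes of the pathway were called with Son siRNA too. Of 10883 genes tested, 30.6% were called higher and 20.4% lower in tunicamycin, and 20.0% and 16.1% in DMSO. Of 9 acute phase genes, 5 rose and 0 fell in tunicamycin and 4 rose and 1 fell in DMSO, among them Serpina3g and Mt2 (0.44). Serpina3g averaged 2.52 ± 0.265 FPKM in Son siRNA cells and 0.841 ± 0.123 FPKM in control siRNA cells in DMSO (0.93). Its control siRNA mean there was under 1 FPKM, so the filter may have kept it only through groups in which it is high. Its adjusted p by limma, 1.67e-07, is therefore no support for a rise. Of 5 genes of the classical and lectin pathway, 1 rose and 2 fell in tunicamycin and 0 rose and 2 fell in DMSO. C2 averaged 9.36 ± 0.982 FPKM in Son siRNA cells and 14.3 ± 1.93 FPKM in control siRNA cells in tunicamycin (-0.55, adjusted p = 4.68e-05), and fell in DMSO too (-0.47). Of 28 inducers, 12 rose and 6 fell in tunicamycin and 11 rose and 7 fell in DMSO. Among those that fell in tunicamycin and in DMSO were Irf7 (-0.93 and -0.84), Stat2 (-0.78 and -0.54) and Irf9 (-0.48 and -0.36). More genes of the list rose than fell in each treatment, as did more of all genes. Of 8 partners, 5 rose in tunicamycin and 4 in DMSO, and none fell; of 6 regulators and receptors, 0 rose and 2 fell in tunicamycin and 1 rose and 0 fell in DMSO. The 1 tested gene of the alternative and terminal pathway, Cfp, was not called in any siRNA comparison.

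With tunicamycin 26.1% of all genes were called higher and 41.1% lower with Son siRNA, and 26.6% and 42.4% with control siRNA. Of the 9 acute phase genes, 1 rose and 6 fell under each siRNA. The gene that rose was Slc39a14 (0.65 with Son siRNA and 0.55 with control siRNA), and Mt1 fell (-0.89 and -1.02). Plau fell less with Son siRNA than with control siRNA (-0.72 and -1.14), and the difference of the responses was itself called (0.42, adjusted p = 0.0327). Cebpb, a C/EBP factor, averaged 96.4 ± 7.31 FPKM in tunicamycin and 40.6 ± 3.42 FPKM in DMSO with Son siRNA, and 88.6 ± 10.6 FPKM and 44.1 ± 5.31 FPKM with control siRNA (1.23 and 0.99, adjusted p = 3.77e-09 and 3.55e-08). Socs3 fell (-0.91 and -1.10). Of the 28 inducers, 9 rose and 18 fell with Son siRNA and 7 rose and 15 fell with control siRNA. Calr, calreticulin, an endoplasmic reticulum chaperone that also binds C1q, rose to 1125 ± 42.2 FPKM in tunicamycin, against 427 ± 11.2 FPKM in DMSO with Son siRNA, and to 1524 ± 216 FPKM, against 475 ± 11.8 FPKM with control siRNA (1.39 and 1.67). Of 6 regulators and receptors 3 rose and 2 fell with Son siRNA and 4 rose and 1 fell with control siRNA. Of the 5 genes of the classical and lectin pathway 3 fell with Son siRNA and 1 with control siRNA, of 8 partners 4 fell under each siRNA, and none of either list rose. The summed fibroblast markers were 587 to 689 FPKM in tunicamycin and 859 to 901 FPKM in DMSO with Son siRNA, and 517 to 636 FPKM in tunicamycin and 755 to 925 FPKM in DMSO with control siRNA. Their part in these results was not tested.

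**Figure D3:**
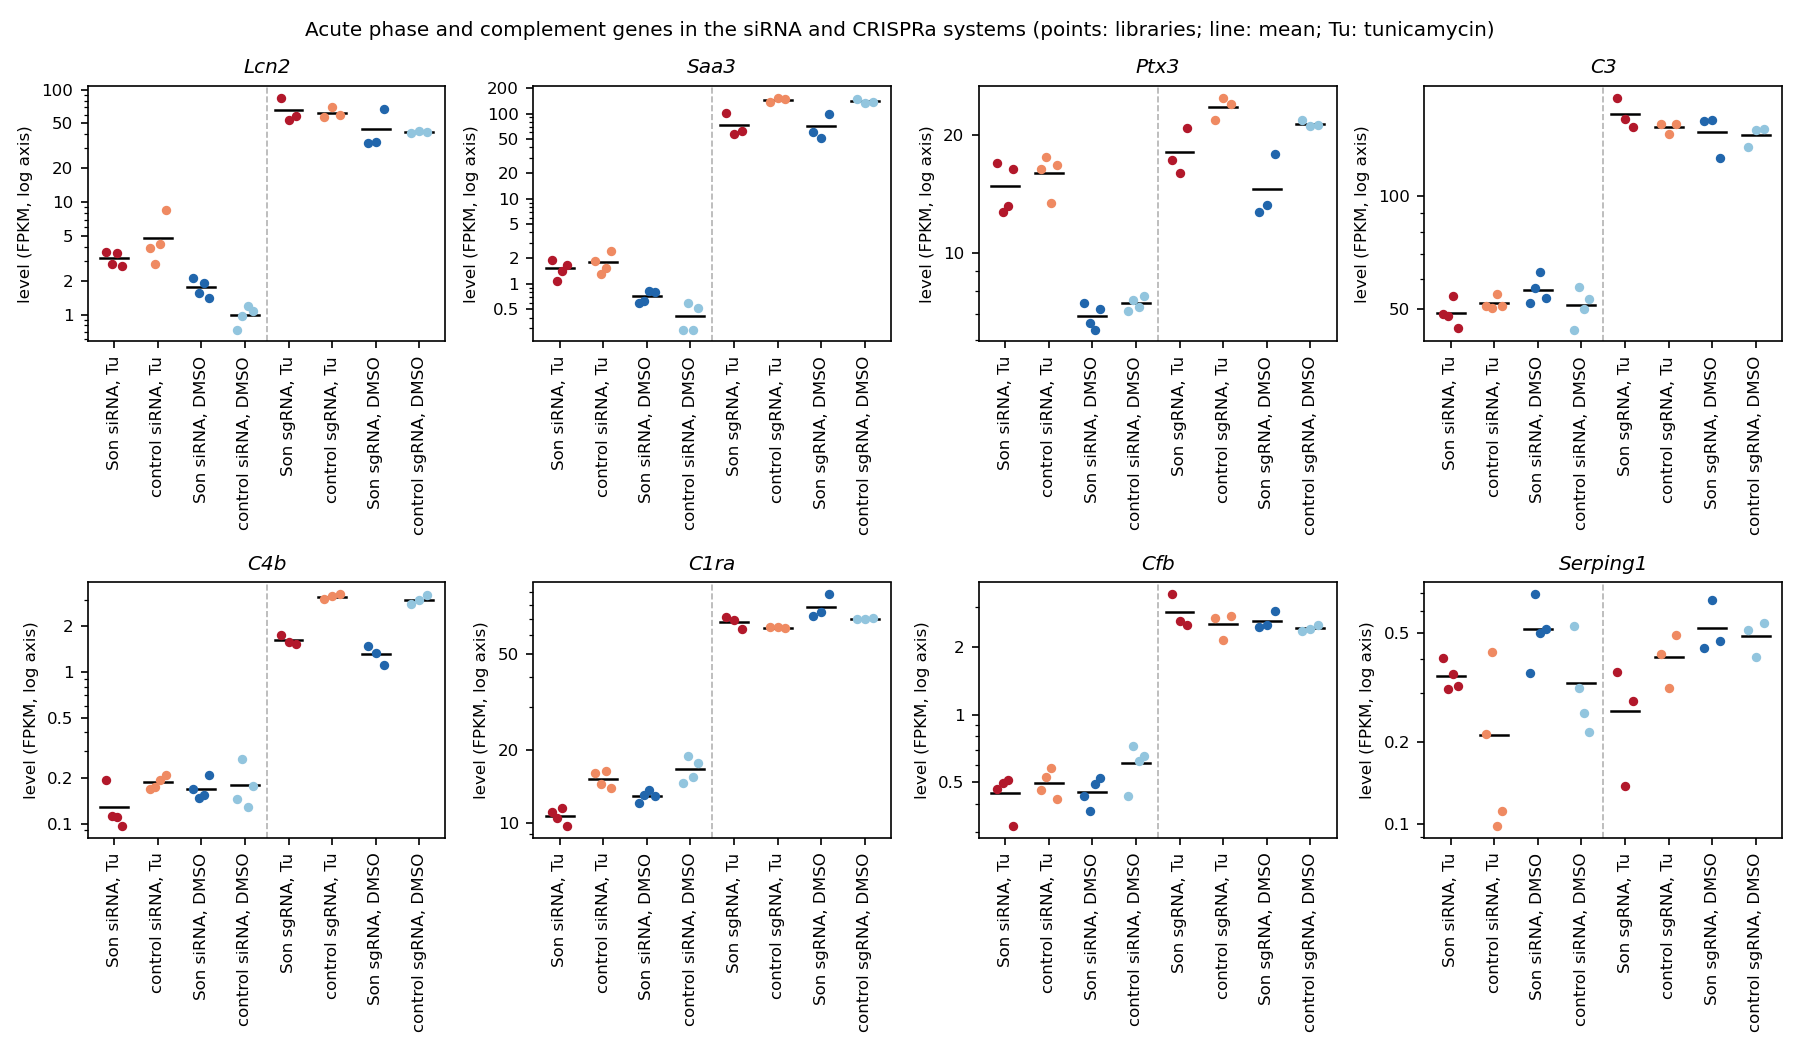
Level in FPKM on a log axis of each of the 8 genes in the 4 siRNA groups (left of the dashed line) and the 4 CRISPRa groups (right), with 1 point per library and a line at the mean. Lcn2, Saa3 and Ptx3 are higher in tunicamycin than in DMSO in the siRNA groups, and Saa3 and C4b are lower in the libraries labelled Son sgRNA than in those labelled control sgRNA.

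In the CRISPRa system all 8 genes but Serping1 (0.138 to 0.660 FPKM) had a mean of at least 1 FPKM. Saa3 lay between 51.7 and 154 FPKM in its 12 libraries, against 0.287 to 2.43 FPKM in the 16 siRNA libraries, and Lcn2 between 33.6 and 84.9 FPKM, against 0.731 to 8.42 FPKM. Those systems were not compared by a test. The libraries labelled Son sgRNA had less Saa3 and C4b than those labelled control sgRNA in both treatments and less Ptx3 in DMSO. Lcn2, C3, C1ra and Cfb were not called between the sgRNAs.

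Saa3 stood at 101, 57.4 and 63.0 FPKM in the libraries labelled Son sgRNA in tunicamycin, against 138, 154 and 146 FPKM in those labelled control sgRNA. In DMSO those with Son sgRNA had 61.1, 51.7 and 98.7 FPKM, against 148, 133 and 138 FPKM in those labelled control sgRNA. No Son sgRNA library reached a control sgRNA library, and the log2 fold changes were -1.02 (SE 0.223, adjusted p = 0.0132) in tunicamycin and -1.03 (adjusted p = 0.011) in DMSO. With both doubted libraries left out they were -0.86 (adjusted p = 0.00157) and -1.30 (adjusted p = 0.000157). Those libraries held the lowest Saa3 of the Son sgRNA tunicamycin group and the highest of the Son sgRNA DMSO group. Both values therefore had to move in these directions. The call in tunicamycin was lost when library B or C of the Son sgRNA tunicamycin group, or library B or C of the control sgRNA tunicamycin group, was left out, with values from -1.26 to -0.86 over all such omissions.

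C4b stood at 1.76, 1.57 and 1.54 FPKM in the libraries labelled Son sgRNA in tunicamycin, against 3.01, 3.17 and 3.27 FPKM in those labelled control sgRNA. In DMSO it stood at 1.48, 1.34 and 1.11 FPKM in the libraries labelled Son sgRNA, against 2.80, 3.01 and 3.23 FPKM in those labelled control sgRNA. The groups did not overlap in either treatment, with ratios of means of 0.515 and 0.435 and log2 fold changes of -0.66 (SE 0.0758, adjusted p = 0.000206) and -0.80 (SE 0.0758, adjusted p = 5.92e-05). Without both doubted libraries the values were -0.65 (adjusted p = 0.000102) and -0.73 (adjusted p = 4.97e-05). Its near copy C4a held 9.28 to 18.4% of the C4a and C4b sum, and their transcripts are 95.9% identical over 5378 aligned bases, so the division of reads between them is uncertain.

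Ptx3 stood at 12.7, 13.3 and 17.9 FPKM in DMSO in the libraries labelled Son sgRNA, against 21.8, 21.0 and 21.2 FPKM in those labelled control sgRNA, a log2 fold change of -0.53 (SE 0.117, adjusted p = 0.0118). That call was lost in a fit of only the groups compared (adjusted p = 0.0557). The tunicamycin libraries had 17.3, 16.002 and 20.9 FPKM with Son sgRNA, against 21.9, 24.9 and 24.0 FPKM with control sgRNA (-0.37, adjusted p = 0.0704). Libraries labelled Son sgRNA were below the others in both treatments. Without both doubted libraries the values were -0.67 (adjusted p = 0.000101) in DMSO and -0.29 (adjusted p = 0.00981) in tunicamycin, and both were then called. Those libraries held the highest Ptx3 of the Son sgRNA DMSO group and the lowest of the Son sgRNA tunicamycin group. The values therefore had to move in these directions.

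Of 7 members tested, 0 were called higher and 2 lower in tunicamycin, against 2.59% and 6.86% of 11218 genes, and 0 higher and 3 lower in DMSO, against 9.11% and 5.29%. The split of calls over all genes depended on the scaling. In tunicamycin 27.4% of calls were higher, against 42.0% under median-ratio scaling and 50.6% under quantile normalization, and in DMSO 63.3%, against 45.2% under median-ratio scaling. Saa3, C4b and Ptx3 kept their sign under each of these scalings. Lcn2 in DMSO differed by 0.02 between the libraries labelled Son sgRNA and control sgRNA and was -0.03 under median-ratio scaling, and it stood at 67.2 FPKM in library C, against 33.6 and 34.2 FPKM in the other Son sgRNA libraries of that group. Without both doubted libraries it was -0.30 (adjusted p = 0.0938). In that fit 0 members were called higher and 3 lower in each treatment, against 15.7% and 13.7% of 11227 genes in tunicamycin and 19.6% and 9.26% in DMSO. The members not called in tunicamycin were C3 (0.11 with all libraries and 0.13 without both), C1ra (0.08 and 0.07), Cfb (0.13 and 0.17) and Lcn2 (0.05 and 0.17). In DMSO C3 was 0.02 with all libraries and 0.13 without both, C1ra 0.16 and 0.07 and Cfb 0.07 and 0.02.

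Lcn2 stood at 84.9, 53.6 and 57.9 FPKM in tunicamycin and 33.6, 34.2 and 67.2 FPKM in DMSO in the libraries labelled Son sgRNA (log2 difference 0.58, SE 0.232, adjusted p = 0.0558). In those labelled control sgRNA it stood at 57.0, 70.4 and 59.7 FPKM in tunicamycin, against 41.2, 42.7 and 42.4 FPKM in DMSO (0.55, SE 0.232, adjusted p = 0.0808). The groups overlapped with Son sgRNA through library C and did not overlap with control sgRNA. When both doubted libraries were left out, Lcn2 was called higher in tunicamycin with Son sgRNA (1.03, adjusted p = 7.88e-05) and with control sgRNA (0.55, adjusted p = 0.00139). Those libraries held the lowest Lcn2 of the Son sgRNA tunicamycin group (53.6 FPKM) and the highest of the Son sgRNA DMSO group (67.2 FPKM). Leaving them out therefore had to widen the Son sgRNA difference, and that call is no support for a rise. With control sgRNA only the shared spread changed, not the difference.

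C1ra, at 71.2, 69.1 and 63.5 FPKM in tunicamycin and 71.8, 74.3 and 88.3 FPKM in DMSO, fell in the libraries labelled Son sgRNA (-0.20, SE 0.0722, adjusted p = 0.0414). That call was lost in 9 of 12 fits that leave out 1 library, under median-ratio scaling (adjusted p = 0.0605), under quantile normalization (-0.05, adjusted p = 0.4), without the filter (adjusted p = 0.0603), in a fit of only the groups compared (adjusted p = 0.175) and without both doubted libraries (-0.12, adjusted p = 0.0504). It was the single call of 7 members with Son sgRNA, with 0 higher and 1 lower, against 22.7% and 26.6% of all genes. C1rb, the near copy of C1ra, was not called with tunicamycin and Son sgRNA (-0.03, adjusted p = 0.71). With control sgRNA limma called 0 higher and 0 lower, 1 of 7 had an unadjusted p under 0.05, and 24.2% and 14.1% of all genes were called. There the share of all calls that were higher was 63.2%, against 49.7% under median-ratio scaling and 48.9% under quantile normalization. Without both doubted libraries 3 members were called higher and 0 lower with Son sgRNA (Lcn2, Saa3 at 0.50 and Ptx3 at 0.52), against 33.4% and 27.4% of all genes, and 1 higher and 1 lower with control sgRNA (Lcn2, and C1ra at -0.12), against 38.5% and 23.8%. Library B of the Son sgRNA tunicamycin group had the lowest Lcn2, Saa3 and Ptx3 of its group. Library C of the Son sgRNA DMSO group had the highest of its own. Leaving out both therefore had to raise these 3 values with Son sgRNA, and the calls are no support for a rise. Without library C alone Saa3 was not called with Son sgRNA (0.34, adjusted p = 0.115). The tunicamycin response did not pass the test as different between the sgRNAs for any member or any gene: 0.00% of genes were called higher and 0.00% lower by limma, with 0 of 7 members and 908 of 11218 genes at an unadjusted p under 0.05. No member was called without both doubted libraries, and 0.00891% of genes were called higher and 0.00% lower. The largest response difference of a member was then 0.48 for Lcn2 (adjusted p = 0.329), against 0.03 with all libraries. C3 averaged 165 ± 15.6 FPKM in tunicamycin and 148 ± 18.9 FPKM in DMSO in the libraries labelled Son sgRNA, and 152 ± 5.40 FPKM in tunicamycin and 146 ± 8.87 FPKM in DMSO in those labelled control sgRNA (SD, n = 3 each), and was not called in any CRISPRa comparison. Cfb lay between 2.13 and 3.43 FPKM throughout.

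Several other acute phase genes were also lower in the libraries labelled Son sgRNA. Of 11 with a mean of at least 1 FPKM, 9 fell and 0 rose in tunicamycin (median -0.57, against -0.02 over all genes), and 5 fell and 0 rose in DMSO. Steap4, a metalloreductase, averaged 3.73 ± 0.784 FPKM in Son sgRNA and 9.21 ± 0.122 FPKM in control sgRNA libraries in tunicamycin (-1.12, adjusted p = 1.85e-05), with the same value in DMSO (-1.12). Hp, haptoglobin, averaged 1.02 ± 0.245 FPKM in Son sgRNA and 2.69 ± 0.104 FPKM in control sgRNA libraries in tunicamycin (-0.88, adjusted p = 0.000453) and fell in DMSO too (-0.73). Without both doubted libraries 9 fell in tunicamycin and 9 in DMSO, Steap4 was -1.10 and -1.13 and Hp -0.91 and -0.82. Under median-ratio scaling the counts were 7 and 5. Of 7 regulators and receptors, 2 fell in tunicamycin and 1 in DMSO. Of 5 genes of the classical and lectin pathway, 1 fell in tunicamycin and 2 in DMSO, with Colec12 in both (-0.48 and -0.29). Itih2, a chain of the inter-alpha-trypsin inhibitors whose heavy chains pentraxin 3 binds, averaged 11.7 ± 0.844 FPKM in Son sgRNA and 23.4 ± 0.678 FPKM in control sgRNA libraries in tunicamycin (-0.94, adjusted p = 1.18e-06) and fell in DMSO (-1.02). Itih2 was -0.89 and -1.0 and Colec12 -0.47 and -0.25 without both doubted libraries, all called. Of 8 partners 4 fell in tunicamycin, and 1 rose and 2 fell in DMSO. Of 30 inducers, 0 rose and 2 fell in tunicamycin and 4 rose and 2 fell in DMSO. Of all 11218 genes, 2.59% were called higher and 6.86% lower in tunicamycin, and 9.11% and 5.29% in DMSO. The inducer counts were near those shares. With both doubted libraries left out, 4 inducers rose and 6 fell in tunicamycin and 9 rose and 6 fell in DMSO, while the share of all genes called was higher too, as given above for that fit. The partners then had 1 rising and 4 falling in each treatment, the regulators and receptors 3 rising and 2 falling in tunicamycin and 1 falling in DMSO, and the classical and lectin counts were 1 and 2 falling. The summed fibroblast markers were 472 to 547 FPKM in Son sgRNA and 679 to 727 FPKM in control sgRNA libraries in tunicamycin, and 557 to 655 FPKM and 806 to 892 FPKM in DMSO. The 5 epithelial markers, all with a mean under 1 FPKM, went the other way. In tunicamycin they summed to 1.17 to 1.48 FPKM in Son sgRNA and 0.734 to 0.857 FPKM in control sgRNA libraries. In DMSO they summed to 1.65 to 2.27 FPKM and 0.566 to 0.861 FPKM. The part of both lists in these results was not tested.

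With tunicamycin 22.7% of all genes were called higher and 26.6% lower with Son sgRNA, and 24.2% and 14.1% with control sgRNA. Of the 11 acute phase genes, 2 rose and 7 fell in the libraries labelled Son sgRNA, and 2 rose and 3 fell in those labelled control sgRNA. The 2 that rose were Il1rn (0.28 and 0.26) and Slc39a14 (0.50 and 0.52). Il6 averaged 6.92 ± 1.28 FPKM in tunicamycin and 3.93 ± 0.890 FPKM in DMSO with Son sgRNA, and 5.47 ± 0.290 FPKM and 3.20 ± 0.698 FPKM with control sgRNA, and rose with both (0.69 and 0.63, adjusted p = 0.00279 and 0.00575). Of 30 inducers 11 rose and 9 fell with Son sgRNA and 10 rose and 8 fell with control sgRNA. Calr rose (1.03 and 0.92) and Socs3 fell (-0.90 and -0.70). Of 5 genes of the classical and lectin pathway, 2 fell with Son sgRNA and 3 with control sgRNA, C1s1 in both (-0.31 and -0.27), and none rose. Of 7 regulators and receptors 3 rose and 2 fell with Son sgRNA and 2 rose and 1 fell with control sgRNA, and of 8 partners 1 rose and 2 fell with each. Neither of the 2 genes of the alternative and terminal pathway was called in a CRISPRa comparison, with all 12 libraries. With both doubted libraries left out, the acute phase counts were again 2 rising and 7 falling with Son sgRNA and 2 rising and 3 falling with control sgRNA. The inducers had 12 rising and 14 falling with Son sgRNA and 13 rising and 10 falling with control sgRNA, the classical and lectin pathway 0 and 4 and 1 and 4, the regulators and receptors 4 and 1 and 3 and 1, and the partners 1 and 3 and 2 and 3. In the alternative and terminal pathway 1 gene then fell with Son sgRNA. With Son sgRNA Il6 was then 0.92, Calr 1.18, Socs3 -0.91 and C1s1 -0.27, all called, and with control sgRNA, where neither group lost a library, these values did not move and stayed called.

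**Figure D4:**
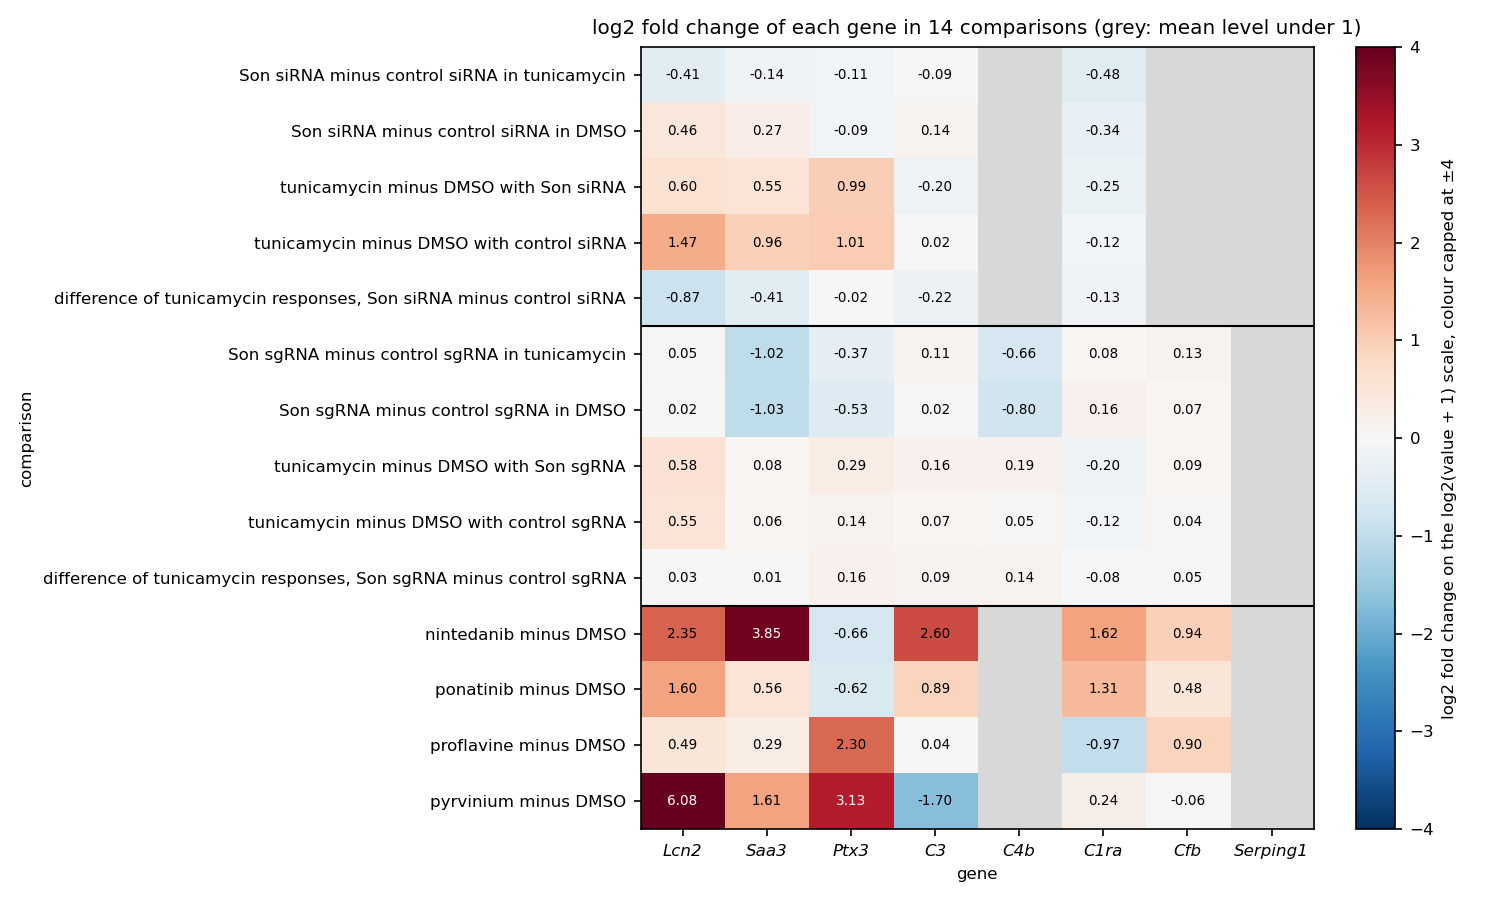
The log2 fold change on the log2(value + 1) scale of each of the 8 genes (columns) in 14 comparisons (rows), red for higher and blue for lower in the group named first, with the value printed in each cell and grey where the gene's mean was under 1. Lcn2, Saa3 and Ptx3 are red in the tunicamycin minus DMSO rows of the siRNA system (0.55 to 1.47). Saa3 and C4b are blue in the rows that set Son sgRNA against control sgRNA within tunicamycin or within DMSO. The drug rows, which carry no test, hold the largest values.

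For each member the 3 genes with the highest Pearson r of log2(value + 1) over the libraries of a system were listed, as a description of libraries that share groups. In the drug system (15 libraries) they were Reep2, Cln8 and Gab2 for Lcn2 (0.990 for Reep2), Tmbim1, Gsdmd and Pisd for Saa3 (0.964 for Tmbim1), Rars, Hspd1 and Parl for Ptx3 (0.996 for Rars) and Erg, Bcam and Tlr2 for C3 (0.991 for Erg). They were Nagk, Tex264 and Dnase2a for C1ra (0.996 for Nagk) and Rab21, Bcl2l1 and Rdh13 for Cfb (0.964 for Rab21). In the siRNA system (16 libraries) they were Nucb1, Papss1 and Mcm2 for Lcn2 (0.970 for Nucb1), Diablo, Tmed3 and Jak2 for Saa3 (0.976 for Diablo) and Fbln5, Mrps22 and Eif2s2 for Ptx3 (0.982 for Fbln5). They were Stk38l, Man2b1 and H2-T23 for C1ra (0.977 for Stk38l) and Sulf1, Tet2 and App for C3 (0.912 for Sulf1). In the CRISPRa system (12 libraries) C4b ran nearest to Slc7a2 (0.991), Saa3 to Cpne8 (0.931), Ptx3 to Serpinh1 (0.950), C1ra to Slpi (0.966), Lcn2 to Krtcap2 (0.927), C3 to Vps39 (0.901) and Cfb to Snora31 (0.771). No member was among the 3 nearest genes of another member in these lists.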

How the data were processed

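Poly-A RNA of a mouse embryonic fibroblast line was measured in 43 libraries (TruSeq stranded mRNA, per the labels' protocols). The authors deposited gene levels as FPKM (fragments per length of transcript and depth) for the siRNA and CRISPRa systems and as TPM (transcripts scaled to a fixed total per library) for the drug system. Trimmomatic, Trim Galore, HISAT2, Cufflinks, Salmon and the build mm10 are named in the submitters' processing notes, which give no versions; neither unit holds a depth. Libraries of the FPKM table are called by the letters A to D of its column names, those of the TPM table by number.

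The FPKM table held 24886 lines. Of these, 27 lines with a date in place of a symbol were dropped, and of 275 symbols repeated on 807 lines the line with the highest mean was kept, leaving 24327 symbols. The TPM table held 25080 symbols.

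For each system, log2(value + 1) of genes with a mean of at least 1 (10883, 11218 and 12132 genes) entered limma 3.58.1 under R 4.3.3, with group terms only and a mean trend in eBayes. Adjusted p-values are Benjamini-Hochberg values over all genes of a comparison, two-sided, and a gene was called under 0.05. Fold changes are on the log2(value + 1) scale, which understates low genes. The fit was tested on simulated data. Other pseudocounts, filters and scalings, fits of only the groups compared, a replicate block and the omission of each library were tried, and the omission of both doubted CRISPRa libraries was added after seeing the data. Near copies were aligned with blastn 2.17.0.

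The 8 members, the 6 pathway lists and the 7 marker lists were chosen with earlier results of these data known. Genes named from a list are up to 4 per comparison with the largest absolute log2 fold change among those called, and a few more named beside them were chosen after their values were seen. A few genes of the lists are counted but not reported here by name. The nearest genes are the 3 with the highest Pearson r.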

Additional observations from a re-analysis of the deposited data

Results flagged for a closer look

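In 36 groups of 4 siRNA libraries, those of the 8 genes and of Son, 2 had a library whose gap to the others was large for the group's range, and chance flags about 1 in 20 such groups. C3 stood at 55.0 FPKM in its highest library of the control siRNA tunicamycin group, against 50.4 to 51.1 FPKM in the other libraries. C4b stood at 0.195 FPKM in its highest library of the Son siRNA tunicamycin group, a level under the filter on low values. Groups of 3 libraries were not examined in this way.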

How the results depend on the processing

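Of 1214 tested values of the members under the alternatives, 1108 kept their direction and their side of the threshold, 24 kept the direction and lost the call, 37 gained a call and 45 changed sign. Of 284 drug values of the members without a test, 260 moved by less than the spread between libraries. The number of members called with Son siRNA against control siRNA in DMSO was 1, against 3 with a pseudocount of 0.1 and 2 in a fit of only the groups compared. With tunicamycin in the libraries labelled Son sgRNA it was 1, against 2 with a pseudocount of 0.1, 3 under median-ratio scaling, 2 under quantile normalization, 0 in a fit of only the groups compared and 3 without both doubted libraries. With tunicamycin and control sgRNA it was 0, against 3 in a fit of only the groups compared and 2 without both doubted libraries.
With a pseudocount of 0.1 the log2 difference of Lcn2 was 3.84 (nintedanib), 2.94 (ponatinib), 1.29 (proflavine) and 7.76 (pyrvinium), and that of Saa3 was 5.37, 1.23, 0.71 and 2.85 in the same order. The following values changed sign. Lcn2 with Son sgRNA in DMSO was -0.032 under median-ratio scaling, -0.071 under quantile normalization and -0.30 without both doubted libraries, and C3 there was -0.031 and -0.077 under the 2 scalings. With tunicamycin and control sgRNA, C4b was -0.00079 and -0.039 and Cfb -0.013 and -0.047 under the 2 scalings, and Saa3 was -0.0036 under median-ratio scaling. Under quantile normalization the C1ra response difference between the sgRNAs was 0.065 and Cfb with pyrvinium was 0.20. The cause of these changes was not tested.

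With each library left out in turn, the members called numbered 1 to 2 for Son siRNA in tunicamycin, 1 to 2 for Son siRNA in DMSO, 0 to 1 for the response difference between the siRNAs, 1 to 3 for Son sgRNA in tunicamycin, 0 to 2 for tunicamycin with Son sgRNA and 0 to 2 for tunicamycin with control sgRNA. Values that changed sign ranged from -0.044 to 0.081 for C3 with tunicamycin and control siRNA, -0.095 to 0.046 for the Ptx3 response difference between the siRNAs, -0.15 to 0.17 for Lcn2 with Son sgRNA in tunicamycin, -0.30 to 0.18 for Lcn2 with Son sgRNA in DMSO and -0.038 to 0.13 for C3 with Son sgRNA in DMSO. With tunicamycin they ranged from -0.17 to 0.34 for Saa3 and -0.020 to 0.15 for Cfb with Son sgRNA, and -0.0095 to 0.12 for Cfb with control sgRNA. The response differences between the sgRNAs ranged from -0.17 to 0.35 (Lcn2), -0.23 to 0.28 (Saa3), -0.016 to 0.15 (C3), -0.14 to 0.012 (C1ra) and -0.055 to 0.12 (Cfb), and C3 with proflavine from -0.040 to 0.11.

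With the replicate block, members called numbered 1, 1, 5, 3 and 0 in the siRNA comparisons, in the order Son siRNA in tunicamycin, Son siRNA in DMSO, tunicamycin with Son siRNA, tunicamycin with control siRNA and response difference, and 3, 3, 1, 0 and 0 in the same order for the sgRNAs. Under the block Ptx3 was called for Son sgRNA in tunicamycin and for tunicamycin with Son sgRNA, and C1ra was not called for the second. Libraries of different groups with the same letter or number did not all deviate together, with correlations of their deviations from group means of -0.189 to 0.174 (siRNA), -0.223 to 0.182 (CRISPRa) and -0.0667 to 0.147 (drug). A library correlated best with one of its own letter or number for 4 of 16, 4 of 12 and 7 of 15 libraries. The main fits therefore left the libraries unpaired. These values cannot show how the cultures were set up. No gene of the pathway lists that was called changed sign under either scaling, or in the CRISPRa comparisons without both doubted libraries. The depth is unknown, so the precision of levels under 1 FPKM or TPM cannot be given.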
